A study of Mus musculus with 2 samples.

Results

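Most of the genes described here encode the subunits and some of the assembly factors of the mitochondrial respiratory chain that are carried in the nucleus. Membership followed a rule on names, set with earlier results of these data known. The rule took symbols beginning with Nduf (complex I), Sdha to Sdhd (complex II) and symbols beginning with Uqcr (complex III). It also took Cox4 to Cox8 (complex IV) and Atp5 (complex V, the ATP synthase), all without names that hold -ps. This gave 95 of the 26082 genes in the data, of which 49 belonged by name to complex I, 4 to complex II, 8 to complex III, 17 to complex IV and 17 to complex V. Another 12 matching names with -ps were left out. The rule still took in 4 genes annotated as processed pseudogenes, Ndufs6b, Ndufa11b, Ndufb4c and Cox6c2. The annotation gives the other members as protein coding. Ndufb4c and Cox6c2 reached the level compared below and are counted in complexes I and IV.

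RNA was measured in primary fibro-adipogenic progenitors (FAPs), the cells of skeletal muscle that can become adipocytes, by RNA-seq with paired reads of 150 nt. The study sorted FAPs from hind limb muscle of C57BL/6 mice aged 6 to 8 weeks, and the labels give the genotype as WT. One group received a TGFBR3 overexpressing plasmid and the other the vector, and both groups were under adipogenic differentiation, for which the induction medium was DMEM with 20% FBS, 10 μg/ml insulin, 0.25 μM dexamethasone and 0.5 mM IBMX. The promoter of the plasmid, the number of animals pooled and the share of cells transfected are not given in the sources used here. There was 1 library per group, so no difference has a replicate check, no test was made and no p-value is given. The values compare these libraries, not the conditions.

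The library labelled TGFBR3 OE held 62321027 counts and the library labelled control 83779203. Tgfbr3, which encodes the betaglycan co-receptor of TGF-β, stood at 36.9 FPKM (16372 counts) in the library labelled TGFBR3 OE and at 35.1 FPKM (21245 counts) in the library labelled control, a log2 ratio of 0.07 (0.04 to 0.10). The overexpression is therefore not seen at the level of this gene in these libraries, which are called OE-labelled and control-labelled throughout. The paper also measured TGFBR3 by RT-PCR in FAPs given the plasmid or the vector. Whether RNA from the plasmid would count to Tgfbr3 here was not tested. FPKM is the count scaled by gene length and library total. Ratios are log2 ratios of (FPKM + 1), OE-labelled over control-labelled, which understate the change of low genes. Brackets after a ratio hold the exact Clopper-Pearson 95% interval, which covers counting error only. Of 10 FAP markers 7 were compared and 5 of these were below 0, with a median ratio of −0.08. Pdgfra was at 30.5 and 32.6 FPKM, Ly6a at 1013 and 706 FPKM and Col1a1 at 467 and 870 FPKM, while Pi16 (0.03 and 0.08 FPKM), Dpp4 (0.05 and 0.00 FPKM) and Lum (0.27 and 0.03 FPKM) were near 0. Of 6 macrophage markers, Adgre1 and Tyrobp had no counts in either library, and Ptprc and C1qa had none in the OE-labelled and 4 and 8 in the control-labelled library, while Cd68 had 252 and 238 counts and Csf1r 182 and 210.

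The respiratory chain sits in the inner mitochondrial membrane. Complexes I and II take electrons from NADH and succinate and hand them to coenzyme Q, complex III passes them to cytochrome c, and complex IV gives them to oxygen. Complexes I, III and IV pump protons on the way, and complex V uses the proton gradient to make ATP. All complexes but complex II join proteins of the nuclear and the mitochondrial genome. Adipocyte differentiation is known to go with a growth in mitochondrial content.

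As a group the nuclear genes of the chain were lower in the OE-labelled library. In FPKM as deposited this was against the direction of the genes as a whole. With a mean of at least 1 FPKM over both libraries, 91 of the 95 members and 11213 genes in all could be compared. The ratio was below 0 in 71 of the 91 members (78.0%), against 36.7% of all genes. The median ratio was −0.21 for the members, with quartiles of −0.42 and −0.03, and 0.14 for all genes. The counting interval lay wholly below 0 in 60 members, wholly above 0 in 13, and held 0 in 18. Of the 11213 genes in all, these numbers were 3349, 6174 and 1690. At a mean of at least 10 FPKM, 58 of 70 members were below 0, beside 47.0% of 4241 genes. With counts scaled by TMM or DESeq2 size factors, 82 of the 91 members were below 0, beside 54.3% and 56.6% of 11202 genes. The median of all genes was then −0.05 and −0.08. The members took 0.696% of all counts in the OE-labelled and 0.828% in the control-labelled library, and their FPKM summed to 3506 and 4388. Depth was ample for most, since 88 of the 95 members had at least 100 counts in both libraries. The counts of some members are less certain, since 23 shared more than 20% of the 31-base words of their principal transcript with other genes. In addition, 33 overlapped exons of another gene, 5 on the same strand and 30 on the other, some of them on both.

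The differences of single members were small. At least 2-fold lower were 2 members, Ndufa4l2 and Cox6b2, beside a background of 1.03% of all genes, and 0 members were at least 2-fold higher, beside 3.14%. At 1.5-fold, 10 members were lower and 1, Uqcrb, was higher, while 4.91% of all genes were lower and 13.3% higher by that much.

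The size of this difference depended on the length of the principal transcripts. The members make short RNAs, with a median length of 875 bases for the principal transcript (the main protein-coding form in the annotation), against 2919 bases for all genes compared. Short transcripts outside the chain were also lower in the OE-labelled library. Among genes in the lowest of 20 length bins, up to 902 bases, 45 members had a median ratio of −0.29 and 40 of them were below 0. The 459 other genes in that bin had a median of −0.19, and 64.1% of them were below 0. In the next bin, up to 1195 bases, 15 members had a median of −0.07 and 491 other genes one of −0.10. In the bin of the longest transcripts, which held 0 members, the median was 0.36. An alternative chosen after seeing the data removed the trend over principal transcript length. The median of the 89 members with such a transcript was then −0.09. Of these, 56 were below 0, beside 49.9% of 10099 genes. Complex V did not move towards 0, with a median of −0.22 against −0.19 as reported. Removing the trend over summed exon length, the length used in the FPKM, did not shrink the difference. The median of the members was then −0.26, with 76 of 91 below 0, beside 50.0% of 11207 genes. The source of the trend over principal transcript length was not tested, and with 1 library per group it cannot be told apart from the condition.

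**Figure D1:**
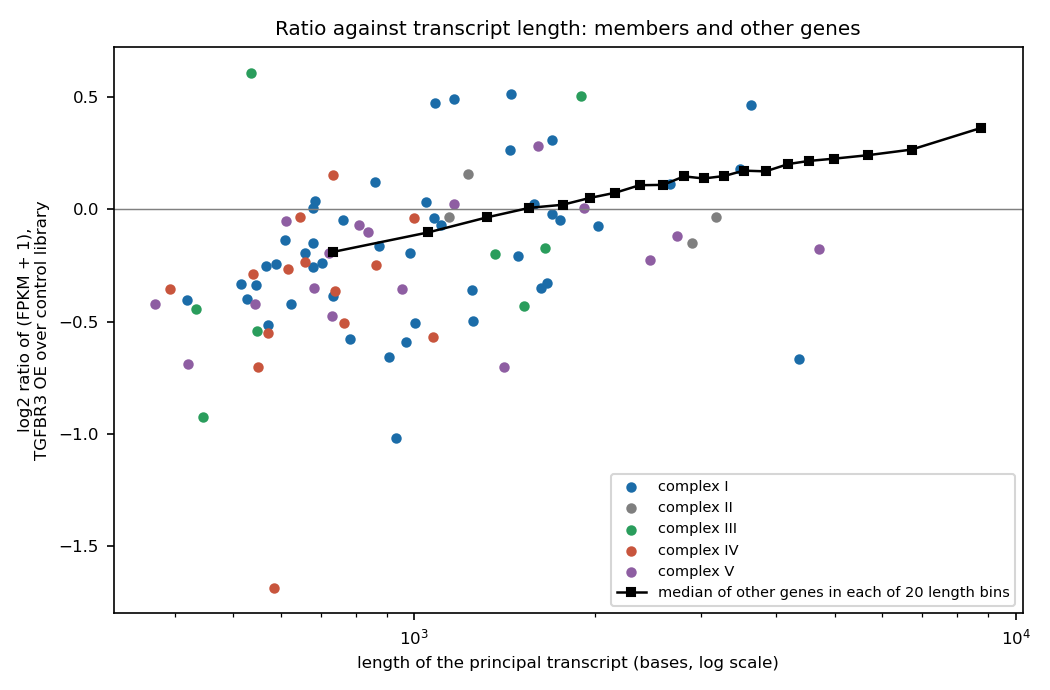
Log2 ratio of (FPKM + 1) of each member (points, coloured by complex) against the length of its principal transcript in bases (log axis), with the median of the other genes in each of 20 length bins (black squares). The black line rises from −0.19 in the shortest to 0.36 in the longest bin, and most members lie at its short end, 40 of 45 in the shortest bin below 0.

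Exons rich in GC went with lower ratios too. Over all genes in 20 bins of GC content, the median ratio was 0.45 in the first bin and −0.25 in the last. Over the 91 members Pearson's r between GC content and ratio was −0.54 and Spearman's rho −0.52, as a description across genes that share both libraries. The members had a median GC content of 50.1%, close to the 50.0% of all genes, and removing this trend alone moved their median to −0.35, with 80 of 91 below 0.

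**Figure D2:**
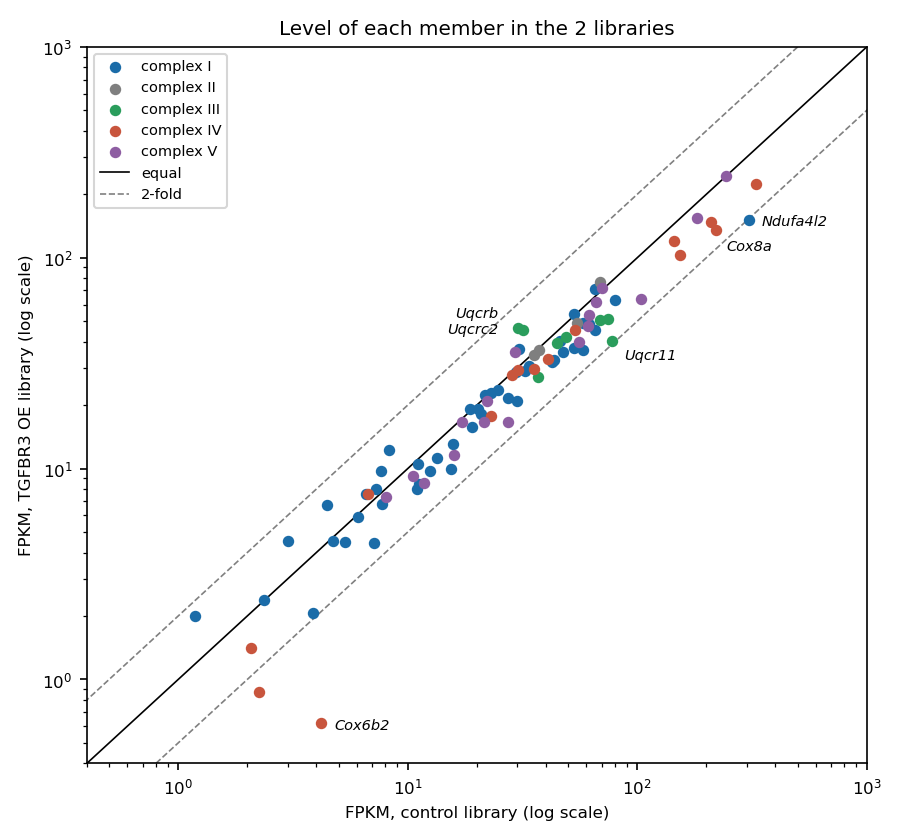
FPKM of each of the 91 members in the control-labelled (x axis) and the OE-labelled library (y axis), both on log axes, with the line of equality and lines at 2-fold. Most points lie under the line of equality, Cox6b2 (0.62 and 4.21 FPKM) far under it, and Uqcrb and Uqcrc2 above it.

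Many nuclear genes of the chain are known targets of NRF1, GABPA (also NRF2), ESRRA and YY1, and the promoter letters of these factors' sites were therefore looked up. RefSeq promoter windows of 250 bases before to 50 after a start (GRCm38.p6) were at hand for 75 of the 95 members, in 80 windows. On either strand, the NRF1 letters GCGCATGCG stood in 12.5% of the 80 member windows and in 1.75% of 32851 windows of all genes. The site reads nearly the same on both strands, so a single site can match on each. The YY1 letters AAGATGGCG stood in 10.0% of member windows and 1.40% of all windows. The GABPA letters CCGGAAGT were found in 6.25% and 3.89%, and the ESRRA letters TCAAGGTCA in 2.5% and 0.423%. In all, 24 members held at least 1 of these 4 motifs. The promoters below run from 120 bases before the start and hold 5 from it, and show examples of members with a match there, 4 with ratios below 0 (Uqcr11, Cox8a, Uqcrh and Atp5k) and 1 above 0 (Ndufaf4). Capitals mark the NRF1 or GABPA letters on either strand.
Uqcr11 (chr10:80406817-80406941, minus strand): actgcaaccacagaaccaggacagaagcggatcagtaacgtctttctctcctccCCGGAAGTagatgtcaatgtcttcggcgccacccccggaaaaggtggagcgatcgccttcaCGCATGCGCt
Cox8a (chr19:7217612-7217736, minus strand): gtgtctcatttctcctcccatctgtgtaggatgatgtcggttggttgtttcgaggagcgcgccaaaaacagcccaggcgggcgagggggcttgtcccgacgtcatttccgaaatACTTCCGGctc
Uqcrh (chr4:116075066-116075190, minus strand): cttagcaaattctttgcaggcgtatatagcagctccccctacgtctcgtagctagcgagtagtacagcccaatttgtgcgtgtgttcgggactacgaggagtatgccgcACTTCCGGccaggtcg
Atp5k (chr5:108434395-108434519, minus strand): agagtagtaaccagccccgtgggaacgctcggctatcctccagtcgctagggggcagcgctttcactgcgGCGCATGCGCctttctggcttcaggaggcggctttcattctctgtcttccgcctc
Ndufaf4 (chr4:24897963-24898087, plus strand): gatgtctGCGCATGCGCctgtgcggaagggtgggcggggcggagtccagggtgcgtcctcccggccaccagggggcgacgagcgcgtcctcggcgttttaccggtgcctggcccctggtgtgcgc

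The ratios were also read against these letters, as a description. The 10 members with the NRF1 letters had a median ratio of −0.38 and 7 were below 0, against −0.20 and 52 of 64 for members without them. Of the 8 with the YY1 letters 6 were below 0, with a median of −0.22, beside −0.20 for the 66 without. The 5 with the GABPA letters had a median of −0.54 and 4 were below 0, and the 69 without them one of −0.20.

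Complex I, the NADH dehydrogenase, had a median ratio of −0.20 over 47 members, of which 34 were below 0. Its FPKM summed to 1159 in the OE-labelled and 1483 in the control-labelled library. With the length trend removed the median was −0.04, with 26 of 46 below 0. The 3 lowest members were Ndufa4l2, Ndufb2 and Ndufb11, and the 3 highest were the assembly factors Ndufaf1, Ndufaf5 and Ndufaf6.

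The 7 core subunits of complex I, which carry the flavin and the iron-sulfur clusters, had a median ratio of −0.20, and 5 were below 0. Ndufs8, an iron-sulfur subunit, was at 20.9 FPKM (1829 counts) in the OE-labelled and 30.1 FPKM (3588 counts) in the control-labelled library, a ratio of −0.51 (−0.58 to −0.43). Ndufv1, which binds NADH and the flavin, was at 21.6 and 27.3 FPKM, a ratio of −0.33 (−0.38 to −0.27). Ndufs7 stood at 18.1 and 20.9 FPKM, with a ratio of −0.20 (−0.27 to −0.12). The iron-sulfur subunit Ndufv2 stood at 22.8 and 23.1 FPKM and Ndufs3 at 22.3 and 21.8 FPKM, and both intervals held 0. Ndufs1, the largest core subunit, was the only core gene with an interval above 0, at 7.98 and 7.31 FPKM and a ratio of 0.11 (0.06 to 0.16). Removing the trend over GC content turned it to −0.27.

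The 29 accessory subunits, which surround the core, had a median ratio of −0.24, with 23 below 0. Ndufb11, a small membrane-arm subunit encoded on the X chromosome, was at 36.6 FPKM (2254 counts) against 58.2 FPKM (4885 counts), a ratio of −0.66 (−0.73 to −0.59). Ndufb2, whose principal transcript is listed at 4371 bases, was at 2.07 and 3.88 FPKM (794 and 2020 counts), a ratio of −0.67 (−0.75 to −0.58). Ndufb4 was at 9.97 and 15.5 FPKM, a ratio of −0.59. Its value is uncertain, because 38.3% of the 31-base words of its principal transcript occur in other genes. The processed pseudogene Ndufb4c shares 100% of its words with other genes, Ndufb4 among them. It was at 19.3 and 20.3 FPKM, a ratio of −0.07 (−0.23 to 0.08). At the other end of the group, Ndufs4, whose loss in mice models Leigh syndrome, was at 9.73 and 7.67 FPKM, a ratio of 0.31 (0.22 to 0.39). Ndufa9 was at 36.9 and 30.6 FPKM, a ratio of 0.26 (0.21 to 0.31). With both the length and the GC trend removed, Ndufb11 was at −0.51 and Ndufb2 at −1.05, whereas Ndufs4 was at 0.07 and Ndufa9 at 0.17. Of the principal transcript words of Ndufb11, 29.0% occur in other genes, and it overlaps exons of Rbm10 on the other strand. Ndufb2 overlaps exons of Gm42420 on the same strand and of Braf and Gm16272 on the other. The value of Ndufb2 depends on its listed length, which placed it in a length bin with a median of 0.21. With the length trend alone removed Ndufb2 was at −0.88.

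The 8 Ndufaf genes encode factors that help to build complex I and are not part of the finished enzyme. Their median ratio was 0.23, and 5 of the 8 (62.5%) were above 0, beside 63.1% of all genes. The 83 other members compared had a median of −0.24, with 15 above 0. Ndufaf1 was at 12.3 FPKM (1254 counts) in the OE-labelled and 8.30 FPKM (1154 counts) in the control-labelled library, a ratio of 0.52 (0.41 to 0.62). Ndufaf5 was at 6.70 and 4.47 FPKM and Ndufaf6 at 4.55 and 3.00 FPKM, with ratios of 0.49 and 0.47. Ndufaf4, whose promoter with the NRF1 letters is given above, was at 2.01 and 1.18 FPKM with a ratio of 0.47 (0.35 to 0.58). Ndufaf8 was the lowest, at 4.44 and 7.12 FPKM and a ratio of −0.58 (−0.76 to −0.40). Ndufaf3 was at 4.48 and 5.33 FPKM, a ratio of −0.21 (−0.34 to −0.08). Ndufaf7 was at a ratio of −0.05, and its interval held 0. With the GC trend removed the median of the 8 was −0.06. With the length trend removed it was 0.25.

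Ndufa4l2 and Ndufa4 are paralogues with different numbers in these libraries. Ndufa4l2 (chr10:127514967-127517154 on mm10, plus strand) is known as a gene induced by HIF-1 in hypoxia. It was the most abundant member of complex I by name, at 152 FPKM (11255 counts) in the OE-labelled and 308 FPKM (31120 counts) in the control-labelled library, a 2.03-fold difference with a ratio of −1.02 (−1.05 to −0.99). It overlaps exons of Shmt2 on the other strand. The protein of Ndufa4 is now placed in complex IV, and this gene was at 30.8 and 33.9 FPKM, a ratio of −0.14 (−0.20 to −0.07). Ndufa4l2 made up 83.1% of the FPKM of the pair in the OE-labelled and 90.1% in the control-labelled library. Hif1a itself was higher in the OE-labelled library, at 82.9 and 52.2 FPKM, a ratio of 0.66. The log2 ratio of the summed FPKM of complex I was −0.36 with Ndufa4l2 and −0.22 without it. With the trends over length and GC content removed its ratio was −0.57.

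Complex II, the succinate dehydrogenase, had a median ratio of −0.03 over its 4 genes. Sdha, the flavoprotein that oxidises succinate, was at 49.0 FPKM (13714 counts) and 54.4 FPKM (20757 counts), a ratio of −0.15 (−0.18 to −0.12). Sdhb, the iron-sulfur subunit, was at 34.5 and 35.4 FPKM, and the membrane anchor Sdhc at 36.5 and 37.4 FPKM, with ratios of −0.03 and −0.04. The second anchor, Sdhd, was at 76.7 and 68.7 FPKM, a ratio of 0.16 (0.11 to 0.20). The sums were 197 and 196 FPKM. No direction can be given for the complex as a whole, since its median turned to 0.04 when FPKM was rescaled to a common sum.

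Complex III, the cytochrome bc1 complex, had a median ratio of −0.31, with 6 of its 8 genes below 0. Of its accessory subunits, Uqcr11, Uqcrh, Uqcr10 and Uqcrq were at ratios of −0.93, −0.54, −0.44 and −0.43. Uqcr11 (chr10:80402997-80406830, minus strand) was the most abundant member of the complex in the control-labelled library, with 77.3 FPKM (4581 counts), and was at 40.2 FPKM (1749 counts) in the OE-labelled one. Its interval ran from −1.01 to −0.85. The catalytic Rieske iron-sulfur protein Uqcrfs1 was at 42.3 and 48.8 FPKM and a ratio of −0.20. The core proteins went opposite ways. Uqcrc1 was at 39.6 and 44.8 FPKM, a ratio of −0.17 (−0.21 to −0.14), and Uqcrc2 at 45.4 FPKM (7853 counts) and 31.7 FPKM (7469 counts), a ratio of 0.50 (0.46 to 0.55). Uqcrb, which binds near coenzyme Q, was the highest of all members, at 46.4 FPKM (2760 counts) against 30.1 FPKM (2438 counts) and a ratio of 0.61 (0.53 to 0.69). Its value is uncertain, because 58.2% of the 31-base words of its principal transcript occur in other genes, and so do 25.6% of those of Uqcrc2. With the trends over length and GC content removed, Uqcrb was at 0.56, Uqcrc2 at 0.34 and Uqcr11 at −0.50.

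Complex IV, cytochrome c oxidase, had a median ratio of −0.35, and 14 of its 15 genes compared were below 0. Its FPKM summed to 925 and 1287. Cox6a1, the member with the highest mean level, was at 224 FPKM (10674 counts) in the OE-labelled and 329 FPKM (21346 counts) in the control-labelled library, a ratio of −0.55 (−0.59 to −0.52). Cox8a (chr19:7215153-7217616, minus strand) was at 135 FPKM (5678 counts) and 221 FPKM (12620 counts), a ratio of −0.70 (−0.75 to −0.66). Cox4i1, the regulatory subunit that binds ATP, was at 148 and 211 FPKM, a ratio of −0.51 (−0.53 to −0.48). Several of the most abundant RNAs of the nuclear chain were thus among the lower ones. Cox6c, Cox7c, Cox6b1, Cox5b and Cox7a2 were at ratios between −0.36 and −0.23, while Cox7b (29.4 and 30.2 FPKM) and Cox5a (27.9 and 28.6 FPKM) had intervals that held 0. The median with the length trend removed was −0.12, with 11 of 14 below 0. With both trends removed Cox8a was at −0.27, Cox4i1 at −0.17 and Cox6a1 at 0.00.

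Complex IV has subunits with tissue isoforms, and the common forms dominated in both libraries. Cox6b2, the isoform of testis, was at 0.62 FPKM (49 counts) in the OE-labelled and 4.21 FPKM (434 counts) in the control-labelled library, a ratio of −1.69 (−1.86 to −1.49) that was the lowest of all members. Its share of the FPKM of Cox6b1 and Cox6b2 was 0.511% and 2.82%. Cox4i2, the isoform known from lung and from low oxygen, was the only gene of complex IV above 0 among the 15 compared, at 7.57 and 6.71 FPKM (406 and 490 counts) and a ratio of 0.15 (−0.02 to 0.32). It made up 4.86% and 3.09% of the FPKM of the Cox4 pair. Cox7a2l, related to subunit 7a and known as a supercomplex factor, was at 103 and 153 FPKM, a ratio of −0.57 (−0.60 to −0.54). It held 68.7% and 73.3% of the FPKM of the Cox7a genes, and its function in these cells was not tested. Cox6c2, a second gene copy of Cox6c, had 14 and 49 counts (0.87 and 2.26 FPKM), a ratio of −0.80 (−1.24 to −0.31). The heart and muscle isoforms had few counts. Cox7a1 had 52 and 104 counts, a ratio of −0.35 (−0.66 to −0.04), Cox6a2 had 9 and 9 counts and Cox8b 0 and 6 counts. Cox7a1 and Cox8b are also genes of brown fat.

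**Figure D3:**
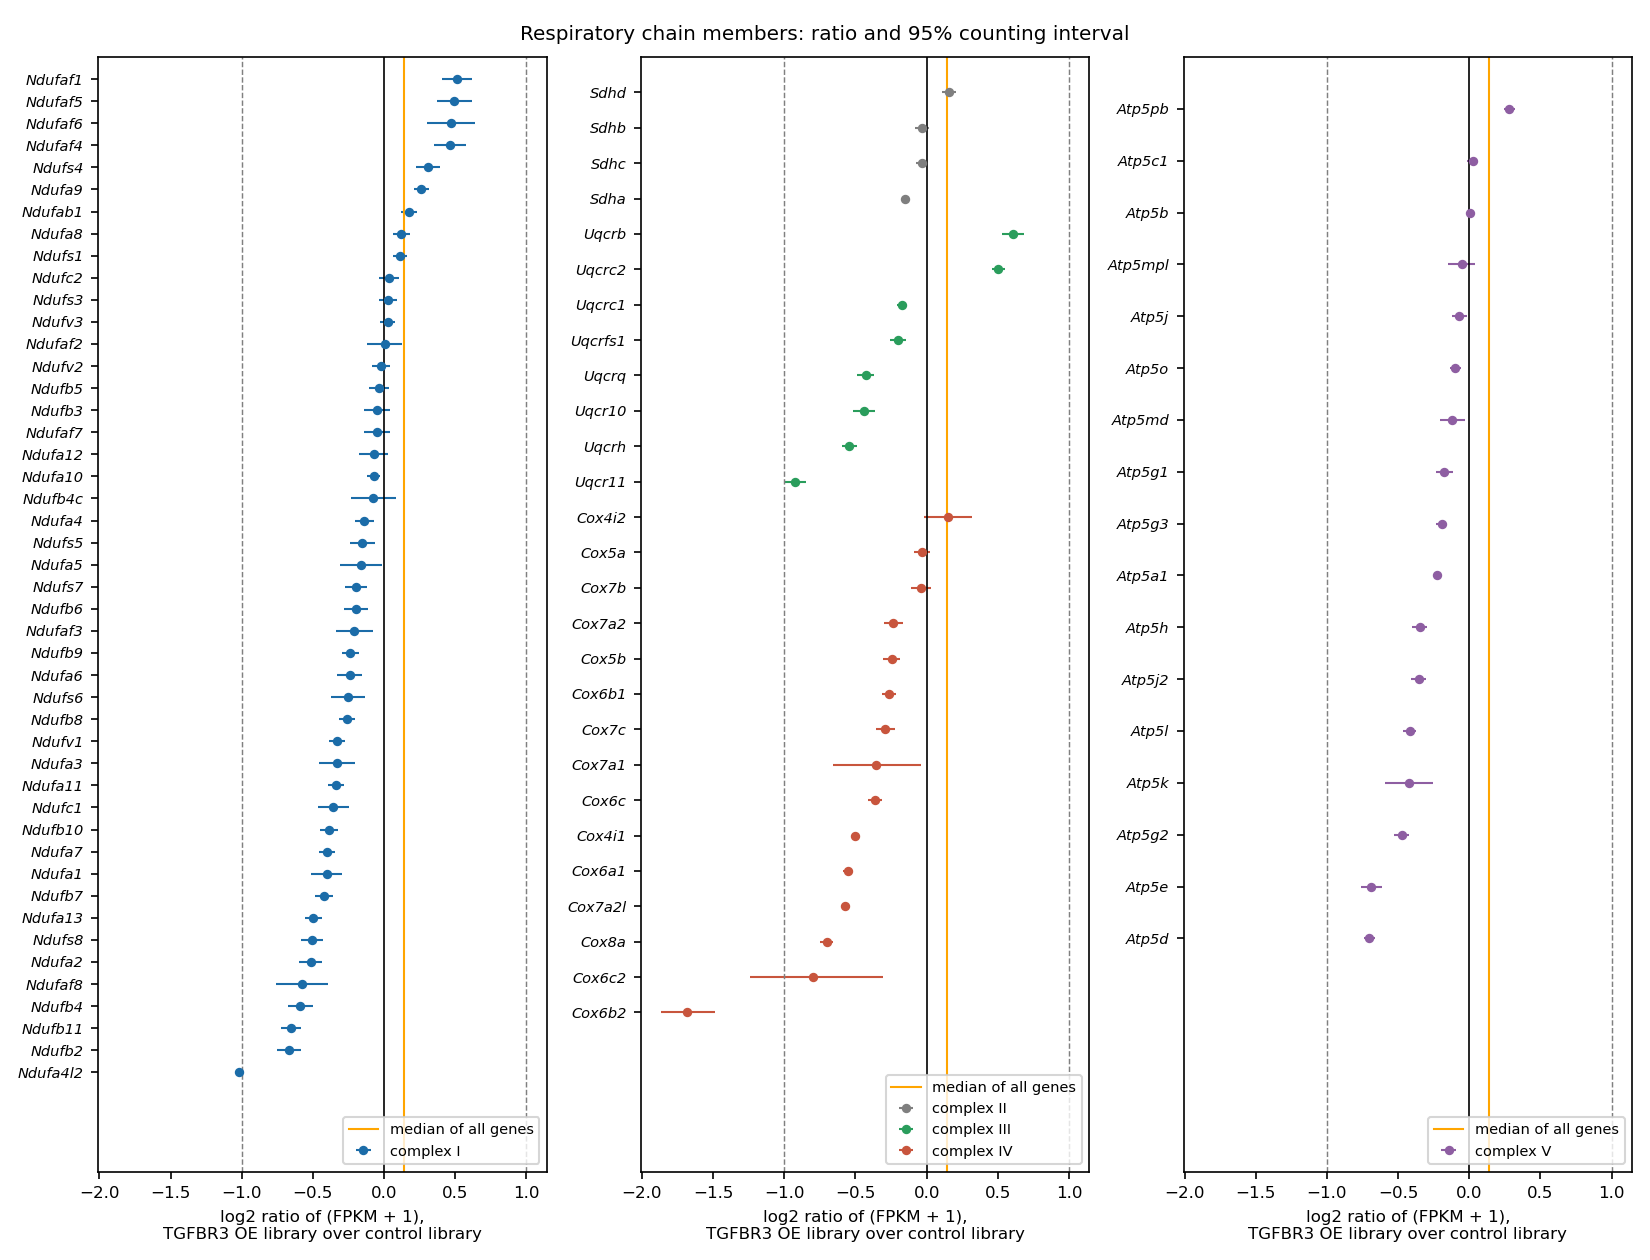
Log2 ratio of (FPKM + 1) of 90 of the 91 members compared (x axis), OE-labelled over control-labelled library, ordered within complexes, with the exact 95% counting interval as a bar. Dashed lines mark 2-fold and the orange line the median of all genes at 0.14, and most points lie below 0.

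Complex V, the ATP synthase, had a median ratio of −0.19, with 14 of 17 genes below 0. Its most abundant gene, Atp5b, the catalytic β subunit, was at 245 FPKM (70297 counts) in the OE-labelled and 244 FPKM (95446 counts) in the control-labelled library, a ratio of 0.00 (−0.01 to 0.02). Its partner Atp5a1, the α subunit, was at 155 and 182 FPKM, a ratio of −0.23 (−0.25 to −0.21). The γ subunit Atp5c1, the rotating shaft, was at 71.8 and 70.6 FPKM, and its interval held 0. The small subunits of the same F1 part were lower. Atp5d, the δ subunit of the rotor, was at 63.5 FPKM (8304 counts) and 104 FPKM (18502 counts), a ratio of −0.70 (−0.74 to −0.66). Atp5e, the ε subunit, was at 16.6 and 27.3 FPKM, a ratio of −0.69 (−0.76 to −0.61). Atp5d overlaps exons of Cbarp on the other strand.

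The 8 genes of the membrane-bound Fo part had ratios from −0.48 to −0.05 and a median of −0.27, all below 0 in FPKM as deposited. Atp5g1, Atp5g2 and Atp5g3 encode the same c-ring protein with different import signals. Atp5g2 was at 39.9 and 55.9 FPKM, a ratio of −0.48 (−0.53 to −0.42), and its share of the FPKM of the trio was 38.8% in the OE-labelled and 43.7% in the control-labelled library. Atp5g3 was at 53.7 and 61.6 FPKM with shares of 52.2% and 48.1%, and Atp5g1 at 9.18 and 10.5 FPKM. Of the words of the principal transcript of Atp5g2, 87.7% occur in other genes, so its counts are uncertain. The peripheral stalk genes had a median of −0.09. Among them Atp5h was at 47.6 and 61.0 FPKM, a ratio of −0.35 (−0.40 to −0.30), and Atp5pb, the b subunit, at 35.8 and 29.2 FPKM, a ratio of 0.28 (0.24 to 0.32). With both trends removed Atp5pb was at 0.02.

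The subunits encoded in mitochondrial DNA were mostly lower as well. Of 13 such genes 12 were below 0, with a median of −0.36, from mt-Nd3 at 44.0 and 91.2 FPKM (ratio −1.04) to mt-Co1, the catalytic subunit of complex IV, at 2628 and 2566 FPKM (ratio 0.03). The removal of the length trend brought their median to −0.23 and that of both trends to −0.50.

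Other mitochondrial genes stood nearer to the level of all genes. Of 38 assembly factors outside the naming rule, 17 were below 0, with a median of 0.12. Cox18, which inserts a subunit of complex IV into the membrane, was at 10.5 and 5.51 FPKM (ratio 0.82) and Sdhaf2, which adds the flavin to Sdha, at 8.98 and 5.15 FPKM (ratio 0.70). Uqcc2, an assembly factor of complex III, was at 39.6 and 65.5 FPKM (ratio −0.71). Of 17 enzymes of the tricarboxylic acid cycle and pyruvate dehydrogenase, 6 were below 0, with a median of 0.07, and Idh2 (8.45 and 13.4 FPKM, ratio −0.61) and Dld (19.5 and 11.8 FPKM, ratio 0.68) marked the ends. Of 17 genes of electron carriers and coenzyme Q synthesis 6 were below 0, with a median of 0.07, and cytochrome c itself, Cycs, was at 25.4 and 14.6 FPKM (ratio 0.76). Of 21 genes of mitochondrial mass and import, 7 were below 0, with a median of 0.18, among them the highest, the chaperone genes Hspd1 (79.4 and 48.2 FPKM, ratio 0.71) and Hspa9 (108 and 66.1 FPKM, ratio 0.70), and Timm23 as the lowest (29.2 and 39.1 FPKM, ratio −0.41). These 4 medians lay between 0.07 and 0.18, beside the 0.14 of all genes, and passed below 0 when the values were scaled by TMM or DESeq2 size factors. Over the 17 alternatives they were below 0 in 7 for the assembly factors, 6 for the cycle, 7 for the carriers and 3 for mass and import, so no direction can be given for them. The principal transcripts of these 4 lists were longer than those of the members, with medians from 1925 to 2544 bases.

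**Figure D4:**
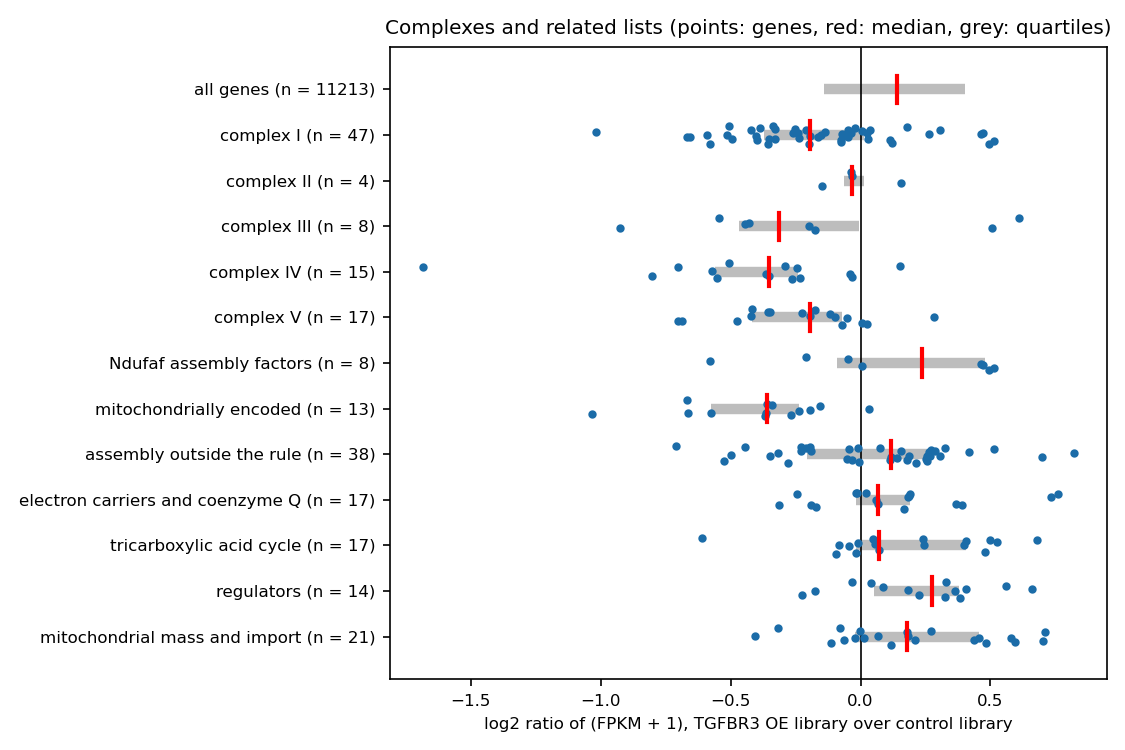
Log2 ratio of (FPKM + 1) for the members of each complex and for related mitochondrial lists, with genes as points, medians in red and quartiles as grey bars. The 5 complexes and the mitochondrially encoded genes have medians below 0, from −0.36 to −0.03, and all genes one of 0.14.

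Of 14 regulators of these genes compared, 3 were below 0, with a median of 0.28. With the trend over principal transcript length removed the median was 0.05 and 6 were below 0, and with the GC trend removed too it was 0.07. Hif1a, Mterf4 and Myc had the highest ratios, at 0.66, 0.56 and 0.41, and Tfb2m the lowest, at −0.23. Tfam, which packages and transcribes mitochondrial DNA, was at 5.30 and 3.83 FPKM (ratio 0.38), and Gabpa at 5.95 and 4.53 FPKM (ratio 0.33). Nrf1 was at 1.62 and 1.96 FPKM (1134 and 1867 counts, ratio −0.18), and Esrra at 10.7 and 10.4 FPKM with an interval that held 0. Ppargc1a, the coactivator that drives mitochondrial biogenesis in brown fat and muscle, had 10 and 16 counts and Ppargc1b 6 and 10 counts.

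Most but not all of the adipocyte markers compared were also lower in the OE-labelled library. Of 7 such markers 5 were below 0, with a median of −0.47, beside 36.7% of all genes. The FAP markers also had 5 of 7 below 0. The FPKM of the 8 markers measured summed to 57.8 in the OE-labelled and 95.3 in the control-labelled library, with none at 0. Adipoq, the adiponectin gene, was at 5.69 and 13.0 FPKM (534 and 1660 counts, ratio −1.07) and Cfd at 15.3 and 39.0 FPKM (ratio −1.29). Fabp4 was at 12.6 and 13.9 FPKM (ratio −0.14). Above 0 were Pparg, at 2.19 and 1.61 FPKM (ratio 0.29), and Lpl, at 10.0 and 8.86 FPKM (ratio 0.16). The direction of most of these markers differs from the paper. It reports that TGFBR3 overexpression induced adipogenesis of FAPs and raised adipogenesis pathways in the transcriptome and PPARγ on western blots. The part of adipocyte content in the lower respiratory chain values was not tested. In bulk RNA, fewer cells of a type and less RNA per cell cannot be told apart.

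The direction for the members as a group held under every processing setting tried, while its size did not. Over 17 alternatives the median of the members ran from −0.48 to −0.09, beside a median of all genes between −0.08 and 0.20. The medians of complexes I, III, IV and V were below 0 in all 17.

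**Figure D5:**
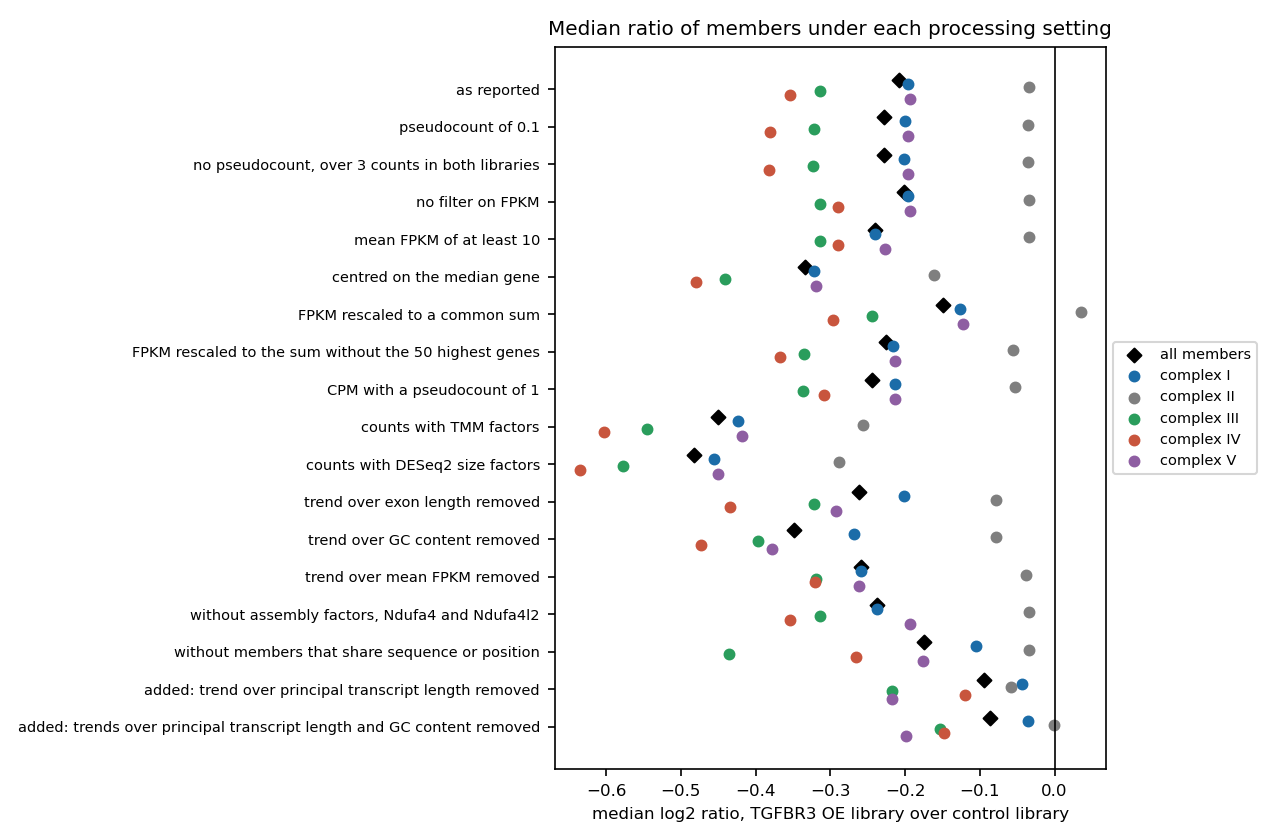
Median log2 ratio of all members (black diamonds) and of each complex (coloured points) as reported and under 17 other processing settings. Each median of all members lies below 0, nearest to it where the trend over principal transcript length was removed, and complex II crosses 0 where FPKM was rescaled to a common sum.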

How the data were processed

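The deposited tables gave raw counts per gene and FPKM rounded to 2 decimals. The paper names STAR and FeatureCounts on mm10, whereas the submitters' processing notes list cutadapt 1.9, HISAT2 2.2.1 and StringTie 2.1.6, and which steps made these values is not settled. Dividing counts by exon length and 1 library total gave the deposited FPKM to within 1% for 98.7% and 98.9% of genes checked. Libraries were labelled as poly(A) selected and dUTP marked.

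From these files the log2 ratio of (FPKM + 1) was computed for genes with a mean of at least 1 FPKM (Python 3.11.15, scipy 1.17.1), with exact Clopper-Pearson 95% intervals on the counts. Reads are not independent molecules, so intervals cover counting error only. No count model was fitted, since there was 1 library per group. edgeR 4.0.16 (TMM) and DESeq2 1.42.0 gave scaling factors for alternatives. Trends were removed as medians in 20 bins. Lengths, GC content and shared 31-base words came from GENCODE M21. Calculations were tested on simulated counts. The members and lists were chosen with earlier results of these data known. The rule for naming took the 3 highest and 3 lowest of each complex and list, the most abundant of each complex, all core and complex II genes and all isoforms, and the text gives only some of those from the lists. Other genes named in the text, and the 9-letter form of the NRF1 site, were chosen after their values were seen. One member is counted in the groups but is not reported here singly.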

Additional observations from a re-analysis of the deposited data

How the results depend on the processing

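The median of all members moved to −0.33 when centred on the median gene, −0.45 with TMM factors, −0.48 with DESeq2 size factors and −0.35 with the GC trend removed. It was −0.095 with the trend over principal transcript length removed and −0.087 with the GC trend removed too, both chosen after seeing the data. Under these last settings complex I was at −0.044 and −0.036 and complex IV at −0.12 and −0.15. TMM and DESeq2 factors gave −0.42 and −0.46 for complex I and −0.60 and −0.64 for complex IV, and DESeq2 factors −0.45 for complex V. Complex II was at −0.16 when centred, 0.035 with a common sum, −0.26 with TMM and −0.29 with DESeq2 factors. Without the most abundant member the log2 ratio of summed FPKM was −0.31 for all members and −0.22, −0.084, −0.22, −0.45 and −0.26 for complexes I to V. Members at least 2-fold lower numbered 5 under TMM and under DESeq2 factors, and 1 with a mean of at least 10 FPKM, with a common sum, with the GC trend removed, with the length trend removed, without assembly factors, Ndufa4 and Ndufa4l2, and without members that share sequence or position. At 1.5-fold 10 were lower and 1 higher. Without members that share sequence or position, 36 of 48 were lower, beside 71 of 91. The cause was not tested beyond what each setting changes. With TMM and DESeq2 factors complex III was at −0.54 and −0.58, and with TMM factors complex V was at −0.42. No paired analysis was possible because each group had 1 library. Depth limited the 7 members without 100 counts in both libraries, among them Cox6c2, Cox6b2 and Cox7a1.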

Other observations

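Among the names with -ps that were left out, some carried reads in numbers like those of members. Ndufa12-ps, annotated as a processed pseudogene, was at 40.4 FPKM (1103 counts) in the OE-labelled and 36.5 FPKM (1356 counts) in the control-labelled library, above Ndufa12 itself at 10.5 and 11.1 FPKM (1119 and 1608 counts). Cox5b-ps, annotated as protein coding, was at 11.24 and 10.97 FPKM, and Ndufb1-ps at 8.33 and 9.26 FPKM. The ratios of these 3 were 0.14, 0.03 and −0.14. Reads could be split between a gene and its near copy.

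Atp5d (chr10:80138632-80145818), Ndufs7 (chr10:80249121-80256794) and Uqcr11 (chr10:80402997-80406830) lie within a short stretch of chromosome 10 on mm10, and their ratios were −0.70, −0.20 and −0.93. The summed exon length used in the FPKM was more than 2 times the length of the principal transcript in 28 members, which lowers their FPKM against that of other genes. For Ndufb7, with 4522 against 623 bases, FPKM was 7.97 and 11.03. CPM per kilobase of principal transcript put Atp5b (589 and 595), Cox4i1 (327 and 471) and Cox6a1 (300.0 and 446) at the top of the members in both libraries, and Sdha rather than Sdhd at the top of complex II in the control-labelled library (85.4 and 75.7).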
